A study of Rattus norvegicus with 4 samples.

Results

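At 5 weeks of age, 8424 of the 33056 m6A peaks listed for the arcuate nucleus (ARC), taken from female rats, shared no base on the same strand with any of the 29653 peaks listed at 3 weeks. These are the peaks listed at 5 weeks only, 25.5% of the 5-week peaks (95% Wilson interval 25.0% to 26.0%). They were chosen by comparing the listed intervals of both ages, so enrichment, p, length and neighbourhood of a peak are close to what chose them and are given as a description without a test. The study compared the ARC of normally developing female Sprague-Dawley rats at 5 weeks, early puberty, with that of such rats at 3 weeks, before puberty. Each age was 1 pool of ARC tissue from 3 rats, with 1 immunoprecipitated (IP) and 1 input library, 4 libraries in all. The labels name the pools only ARC_352 and ARC_212, and which pool is which age was read from the study's text and from the direction of the deposited comparison (ARC_352 as 5 weeks, ARC_212 as 3 weeks). No animal carried a transgene or received a treatment that the labels name. With 1 pool per age, a difference between the ages cannot be told apart from a difference between the pools, and a lower RNA level cannot be told apart from fewer cells of a type. A peak enters a list when the p of the authors is under 0.05 (the largest listed p was 0.0496 at 5 weeks and 0.0497 at 3 weeks), so a region that is not listed may still carry m6A. Each listed p compares the reads of 1 IP with those of 1 input library and holds no spread between animals.

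m6A, N6-methyladenosine, is a methyl mark that a writer complex around METTL3 and METTL14 places on adenosines of mRNA while it is made, mostly within the sequence RRACH (R is A or G, H is A, C or U), of which GGAC is the most frequent core. The erasers FTO and ALKBH5 remove it, and reader proteins of the YTH family bind it and direct the RNA to translation or decay. In neurons the mark lies mainly near stop codons and in 3′ UTRs, and the ARC, which holds the neurons of energy balance and of the kisspeptin, neurokinin B and dynorphin system that drives GnRH secretion, uses the FTO gene strongly.

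The sequences that can be shown for these peaks are those of annotated small RNAs and of transcript starts, taken from RefSeq by gene symbol on the build GRCr8. Of the 4 peaks of microRNA genes at 5 weeks, 3 were listed at 5 weeks only (interval 30.1% to 95.4%), beside 25.5% of all 5-week peaks. The 3 genes had no peak at 3 weeks and were chosen after their values were seen. The peak of Mir431 had a log2 enrichment of 2.91 (listed p 0.000151), that of Mir708 2.59 (listed p 0.000263) and that of Mir3592 2.14 (listed p 0.00177). Mir431 and Mir3592 lie on chromosome 6, and the Mir708 peak spans 113632 bases of the genome, so it is not confined to the precursor hairpin. The mature sequences are shown with the seed, bases 2 to 8 from the 5′ end, in capitals.
rno-miR-431: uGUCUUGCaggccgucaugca
rno-miR-708-5p: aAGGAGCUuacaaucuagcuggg
rno-miR-708-3p: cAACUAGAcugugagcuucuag
rno-miR-3592: aAGUGUUGuccgugaaugauu
The 4 seeds differ from one another. On GRCr8 the mature sequences lie at chr6:134326468-134326488 (+ strand), chr1:160011168-160011190 (+), chr1:160011214-160011235 (+) and chr6:134569992-134570012 (- strand), in the order printed. The libraries were made from fragmented polyadenylated RNA, not from small RNA, so the values do not measure the mature microRNAs.

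Of the peaks listed at 5 weeks only, 154 began at the first base of their gene (1.83%), against 1021 of the other 5-week peaks (4.15%). RefSeq gave the first 50 transcribed bases for 89 genes with such a peak. Of these, 16 (18.0%, interval 11.4% to 27.2%) held the letters GGAC on the transcribed strand, the only strand searched, against 112 of 639 genes whose other 5-week peak began at the start (17.5%, interval 14.8% to 20.7%) and 4652 of all 24206 genes in the table (19.2%). The intervals overlapped, and a match is not a methylated site. As examples, the windows of the matching genes with the smallest p are printed with GGAC in capitals, chosen after their values were seen.
Slc25a4: tcgcgtcgtgcagGGACggagaccgggtgg
Spock1: tcacaaagcggccGGACgcgcggcggcggc
Abcb1a: tccaaagtgtacatcttggcGGACcttacg
Slc25a4 encodes the ADP/ATP carrier of mitochondria, Spock1 an extracellular proteoglycan and Abcb1a a drug efflux pump of the blood-brain barrier. Their peaks had log2 enrichments of 2.33 (listed p 9.21e-56), 2.38 (listed p 4.02e-26) and 2.43 (listed p 1.10e-11). The windows lie on GRCr8 at chr16:52805529-52805558 (+), chr17:6746897-6746926 (+) and chr4:26397599-26397628 (-), and it was not tested whether RefSeq and the annotation of the peak lists place these starts at the same base.

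Peaks listed at 5 weeks only were weak and short. Their median log2 enrichment of IP over input was 2.24 (quartiles 1.98 and 2.71), a 4.74-fold enrichment, against 3.08 (2.41 and 3.91), or 8.46-fold, in the 24632 other 5-week peaks. An enrichment of at least 4-fold was listed for 73.0% of them and for 92.1% of the others. The median interval spanned 325 bases of the genome, introns included, against 1171 bases, and 26.5% spanned at most 150 bases, against 6.61%. Their median −log10 p was 5.69, against 29.2. The adjusted p was under 0.01 for 96.6% of the peaks listed at 5 weeks only and for 99.7% of the others. The groups overlapped widely in enrichment, and both held peaks past a log2 enrichment of 8, 115 (1.37%) and 251 (1.02%).

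**Figure D1:**
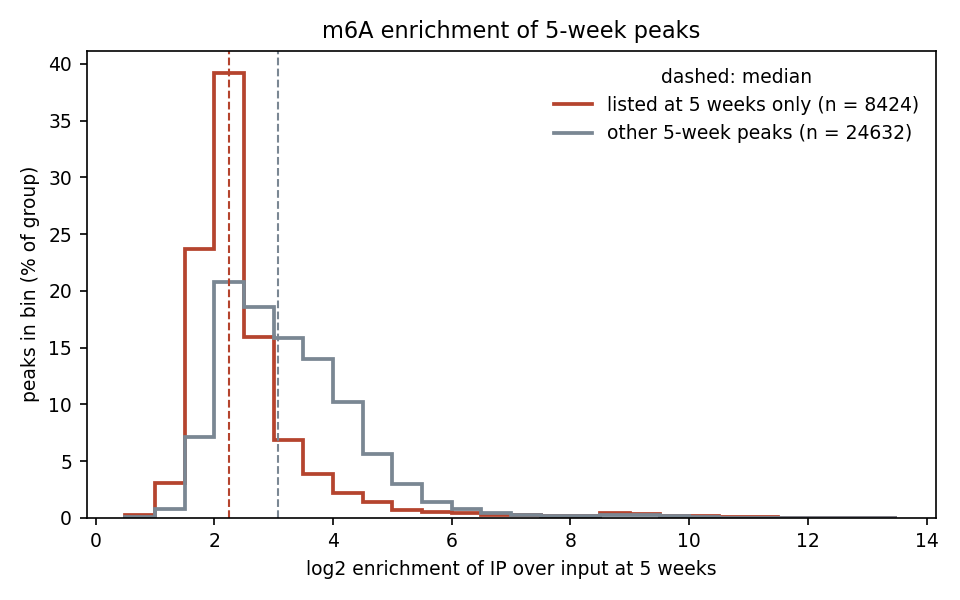
Distribution of the log2 enrichment of IP over input (x axis, bins of 0.5) at 5 weeks, in percent of each group of peaks (y axis), for the 8424 peaks listed at 5 weeks only and the 24632 other 5-week peaks. The dashed medians are at 2.24 and 3.08.

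Weak 5-week peaks were listed at 5 weeks only more often than strong ones. In the weakest sixth of the 5-week peaks (log2 enrichment up to 2.07) 52.3% had no 3-week peak. The share was 39.8%, 26.6%, 15.4% and 8.77% in the next sixths and slightly higher again, 551 of 5510 peaks, in the strongest sixth (from 4.12). The peaks listed at 3 weeks only were weak too, with a median log2 enrichment of 2.58 over 5003 peaks, against 3.34 in the 24650 other 3-week peaks. They were also short, with a median of 225 bases against 1275, and their median −log10 p was 5.13 against 29.8. They made up 16.9% of the 3-week peaks (interval 16.5% to 17.3%), a smaller share than at 5 weeks. The depth of the libraries is unknown, and its part in this difference was not tested.

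Stop codons, the region where m6A is densest, held few peaks listed at 5 weeks only. There 564 of 7583 peaks, or 7.44% (interval 6.87% to 8.05%), had no 3-week peak. The share was 17.3% where a 3-week peak had to cover at least 50% of the interval, against 45.5% in coding exons and 15.2% in the 33 intron peaks under that setting. By the 1-base rule, the share was 34.3% in coding exons away from start and stop codons (3365 of 9807), 34.2% in exons of non-coding RNAs (528 of 1545), 32.7% in 5′ UTRs (809 of 2476), 30.2% in 3′ UTRs (2723 of 9017) and 16.6% at start codons (430 of 2595). Introns held 5 of 33 peaks (15.2%, interval 6.65% to 30.9%). In other words, coding exons held 39.9% of the peaks listed at 5 weeks only, against 26.2% of the other 5-week peaks, and stop codons held 6.70%, against 28.5%. Stop codon peaks were stronger than coding exon peaks at 5 weeks, with medians of 3.60 and 2.95 among the other 5-week peaks, and their share was the lower one in each sixth of enrichment. Within the weakest sixth, 33.7% of stop codon peaks (122 of 362) were listed at 5 weeks only, and 62.6% of coding exon peaks (1130 of 1805). Within the fourth sixth, with log2 enrichments of 2.81 to 3.37, the shares were 4.60% (68 of 1479) and 21.0% (322 of 1536). Peak length was not matched within the sixths, and its part in these shares was not tested. The peaks listed at 3 weeks only also had their lowest share at stop codons, 4.06%, while in 5′ UTRs the share at 3 weeks, 31.5%, had an interval (29.7% to 33.4%) that overlapped the one at 5 weeks (30.9% to 34.5%).

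**Figure D2:**
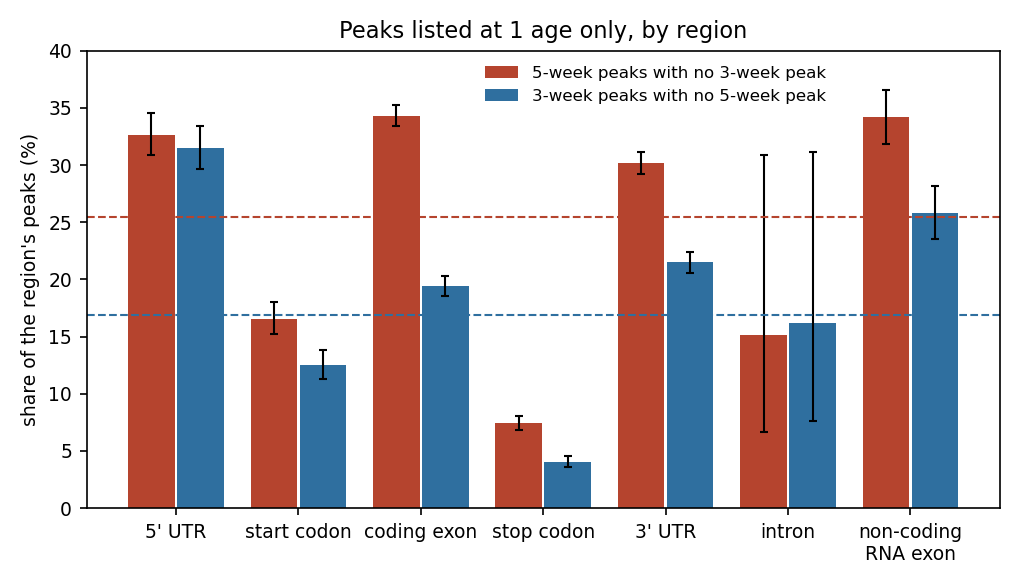
Share of the peaks of each region (y axis, percent) that were listed at 5 weeks only (left bars) and at 3 weeks only (right bars). Error bars are 95% Wilson intervals over peaks and dashed lines are the shares over all regions, 25.5% at 5 weeks and 16.9% at 3 weeks. Stop codons had the lowest share at both ages.

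**Figure D3:**
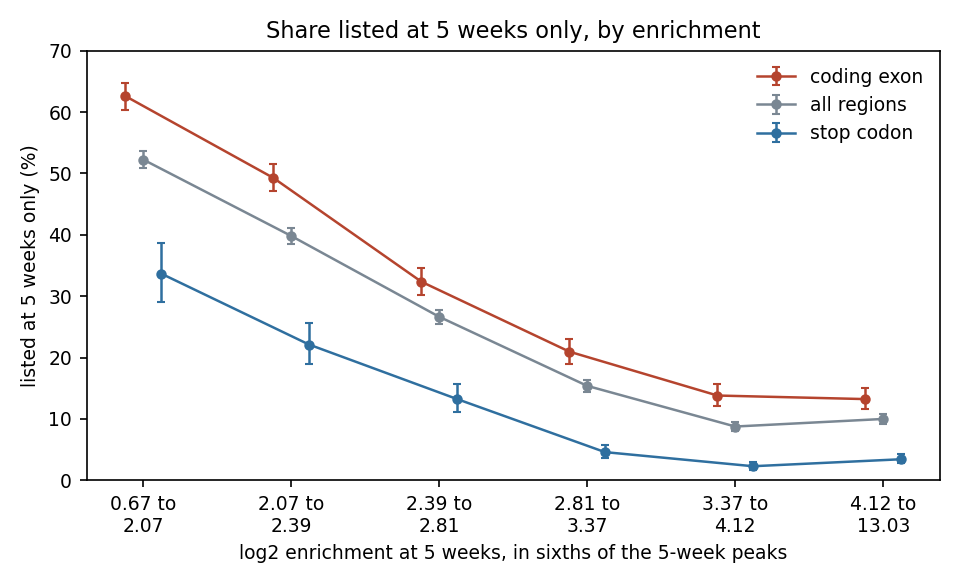
Share of 5-week peaks listed at 5 weeks only (y axis, percent) in sixths of the log2 enrichment at 5 weeks (x axis), for coding exons, all regions and stop codons, with 95% Wilson intervals over peaks. In each sixth the coding exons lie above and the stop codons below the share of all regions.

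By chromosome the share ran from 21.4% (chromosome 18, 199 of 932 peaks) to 27.4% (chromosome 9) among the autosomes, with 31.1% on the X chromosome (357 of 1148, interval 28.5% to 33.8%). None of the 14 peaks of the mitochondrial genome was listed at 5 weeks only. Long non-coding RNAs had 35.9% (471 of 1312), protein-coding genes 25.1% (7896 of 31511).

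Most of these peaks lay in genes that also had listed 3-week peaks, with which they shared no base on the same strand. The 8424 peaks fell in 5874 genes, 41.8% of the genes with a 5-week peak. Of those genes, 4152 held 1 such peak, 1176 held 2 and 66 held 5 or more. Genes with a 3-week peak elsewhere held 6720 of them, and 1704 (20.2%, interval 19.4% to 21.1%) lay in 1238 genes with no 3-week peak. Peaks in genes with no 3-week peak had a median log2 enrichment of 2.50, against 2.20 for those in genes with one. Genes with a 5-week peak and no 3-week peak were 8.92% of the genes with a 5-week peak (1252 of 14036), and genes with a 3-week peak and no 5-week peak were 5.2% of the genes with a 3-week peak (701 of 13485). In the 6720, the nearest 3-week peak of the gene was a median of 1298.5 bases away (quartiles 275 and 8475). It was within 200 bases for 1449 (21.6%) and touched the peak without sharing a base for 183 (2.72%). Over all genes, 186 peaks listed at 5 weeks only touched a 3-week peak, with a median log2 enrichment of 2.29, and 141 other 5-week peaks shared 1 to 25 bases with one, with a median of 2.31. Nearest to the line between them, by smallest p, were peaks of Ass1 (2.07), Cdk14 (2.12) and Slc12a2 (2.06) just inside, and of Psat1 (1.92), Tspoap1 (2.67) and Prkag1 (2.11), each sharing 25 bases, just outside.

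The p of 8 peaks listed at 5 weeks only was given as 0. They include the stop codon peaks of Rpl19, a protein of the large ribosomal subunit (log2 enrichment 2.63, chr10:83025381-83052105, with coordinates as listed and no build given), and of Eef1b2, an exchange factor of translation elongation (3.15, chr9:64582326-64582737). Both genes had no peak at 3 weeks. Aldoc, the aldolase of astrocytes and Purkinje cells, had a 3′ UTR peak at 2.21 and also no peak at 3 weeks. The elongation factor of neurons Eef1a2 held a coding exon peak at 2.04, 63117 bases from its 3-week peak, which had 3.48. Ndrg2, another gene of astrocytes, had 1.67 in its 3′ UTR, and Rasgrf1, a Ras exchange factor of neurons, 2.28 in a coding exon. Also among them, ENSRNOG00000062644 had 2.23 and no 3-week peak. Next came Rpl8-ps7, a copy of a ribosomal protein gene (2.77, listed p 6.74e-289), and Bcat1, an aminotransferase of branched-chain amino acids (1.93, listed p 1.57e-286). None of the peaks listed at 5 weeks only that are named here passed a log2 enrichment of 3.2. Reads of ribosomal protein genes may be shared with their near-identical copies.

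Among the genes with no 3-week peak, the leading ones after Rpl19, Eef1b2, Aldoc and ENSRNOG00000062644 were Ckb, the brain creatine kinase (2.59, listed p 9.74e-264), the ribosomal protein genes Rps15 (3.00, listed p 5.05e-252), Rps7 (2.59, listed p 2.94e-222) and Rpl28 (2.65, listed p 3.24e-181), the neuropeptide gene Pmch (1.54, listed p 6.47e-210) and ENSRNOG00000070285 (2.11, listed p 1.31e-190).

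The largest enrichments were of another kind. The 10 largest ran from a log2 enrichment of 10.47 to 11.70, with p between 5.36e-09 and 1.69e-07, which is weak beside the genes above. Of these, 9 lay in a stretch of chromosome 1, between bases 53222263 and 55068645 as listed, in LOC685793 (11.70 in the 3′ UTR and 11.41 in the 5′ UTR), LOC100910657 (10.90 and 10.61), LOC102546375 (11.09) and the genes ENSRNOG00000067989, ENSRNOG00000069855 and ENSRNOG00000067256. The tenth, ENSRNOG00000066981, lay on chromosome 16 (10.59). The window of chromosome 1 around them held 25 peaks at 5 weeks, of which 22 were listed at 5 weeks only, all 22 past a log2 enrichment of 8 and spread over 9 genes. At 3 weeks it held 5 peaks with a maximum of 9.07, and 1 was listed at 3 weeks only. The lists do not give the input level below these ratios.

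Of the genes with the most peaks listed at 5 weeks only, Nek10, Hydin and Dnah3 are known for motile cilia. LOC103690742 had 10 of its 16 5-week peaks in the group (log2 enrichment 1.57 to 2.24). Ccdc187 had 9 of 9 (2.10 to 5.99) and Nek10, a kinase of motile cilia, 8 of 8 (2.09 to 4.47), and both had no peak at 3 weeks. Fndc1 had 8 of 8 (2.45 to 8.96), Fsd1l 8 of 9 (1.63 to 3.26) and Thoc2l 8 of 12 (1.22 to 2.29). Hydin, a protein of the central pair of the axoneme, had 7 of 10 (1.75 to 3.14), and Dnah3, an axonemal dynein heavy chain, 7 of 9 (1.91 to 3.34). P2ry4, a nucleotide receptor, had 7 of 9 and Prdm10, a transcription factor, 7 of 8. Syne1 (7 of 22) and Syne2 (7 of 14) tied with them.

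A list of motile cilia genes was therefore written after these values were seen, so its share carries no weight of its own. Of their 214 5-week peaks, 114 (53.3%, interval 46.6% to 59.8%) were listed at 5 weeks only, beside 25.5% of all 5-week peaks. They lay in 43 of 68 genes with a 5-week peak, beside 41.8% over all such genes. Of the 43, 11 had no 3-week peak, a share near that over all genes with such peaks (1238 of 5874). Of the 124 3-week peaks of the list, 19 (15.3%) were listed at 3 weeks only. The strongest by p were a coding exon peak of Cfap46 (3.60, listed p 7.25e-21), the stop codon (3.14) and start codon (3.00) peaks of Hydin, and a coding exon peak of Dnah7 (3.38, listed p 1.59e-16), 100 bases from a 3-week peak of 3.35. Ependymal cells of the brain ventricles carry such cilia. The RNA level of these genes and the share of ependymal cells in each pool were not measured here.

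More precursor genes of hypothalamic neuropeptides had a listed peak at 5 weeks than at 3 weeks. This list, too, was written after values were seen. Of 38 genes, 25 had peaks listed at 5 weeks, 16 had some at 3 weeks and 10 had none at either age. Of the 25, 12 had no peak at 3 weeks and the others had peaks at both ages. Rln3, Trh and Ucn had a peak at 3 weeks and none at 5 weeks. Over all genes, 8.92% of those with a 5-week peak had none at 3 weeks and 5.2% of those with a 3-week peak had none at 5 weeks. Of the 32 5-week peaks of the list, 15 (46.9%, interval 30.9% to 63.6%) were listed at 5 weeks only, beside 25.5% of all 5-week peaks. Oxt, the gene of oxytocin, had a stop codon peak with a log2 enrichment of 4.67 (listed p 4.68e-131), and Avp, of vasopressin, one of 2.71 (listed p 1.39e-17). Both are made mainly in the supraoptic and paraventricular nuclei. Hcrt, of the orexins, had 2.50 at its stop codon (listed p 4.67e-104) and Pmch, of melanin-concentrating hormone, 1.54 in its 3′ UTR (listed p 6.47e-210), both genes of the lateral hypothalamus. Npvf, which encodes the RFamide peptide of the dorsomedial nucleus that restrains GnRH secretion, had 3.75 in a coding exon (listed p 4.63e-151).

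Of the genes of ARC neurons, Pomc, the precursor of the appetite-suppressing melanocortins, had 3.17 at its stop codon (listed p 1.66e-28). Tac3, of neurokinin B, had 2.59 in its 3′ UTR (listed p 5.53e-06), and Gal, of galanin, 2.46 in a coding exon and 2.02 in its 3′ UTR. Gnrh1, the gene of GnRH, whose cell bodies lie outside the ARC, had 3.21 in its 5′ UTR (listed p 4.69e-07). The genes Cck (1.93), Tac1 (1.60) and Vip (0.95, listed p 0.0401) each had 1 peak as well. All of these genes were without a 3-week peak. Penk, of the enkephalins, and Pdyn, of dynorphin, held a peak listed at 5 weeks only, in the 5′ UTR of Penk (2.44) and the 3′ UTR of Pdyn (2.08), beside a 5-week peak that overlapped a 3-week one (4.57 in Penk and 3.30 in Pdyn). At 3 weeks the strongest peaks of these genes had 4.58 and 5.27. Crh, Npy, Cartpt, Sst and Vgf held only 5-week peaks that overlapped 3-week peaks, with 9.21, 4.55, 3.64 and 3.58 for the strongest in the first 4. Kiss1, Agrp and Ghrh had no peak at either age. The Pmch peak (chr7:22513106-22513250, + strand) lies under a peak of Parpbp on the opposite strand (chr7:22512927-22513401), also listed at 5 weeks only (2.64). The libraries were strand-specific, but no source used here says whether counting used the strand, so reads of this pair cannot be told apart. In all, 210 of the 8424 peaks lay over a 3-week peak of the other strand.

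**Figure D4:**
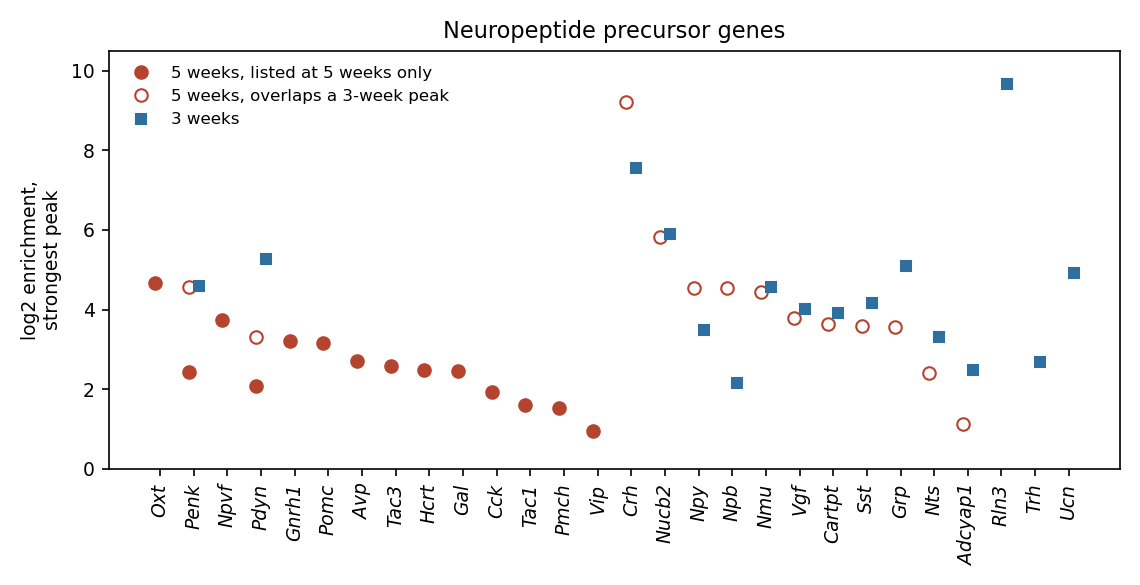
Log2 enrichment over input (y axis) of neuropeptide precursor genes (x axis) for the strongest peak listed at 5 weeks only (filled circles), the strongest 5-week peak that overlaps a 3-week peak (open circles) and the strongest 3-week peak (squares). Genes with no peak at either age are left out. A gene drawn without circles or without a square had no peak listed at that age. Oxt has the largest value among the filled circles, 4.67.

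Gene lists drawn up by function differed in the share of their 5-week peaks that were listed at 5 weeks only, beside the 25.5% of all 5-week peaks. Without the cilia and neuropeptide lists, which were written after values were seen, 29 lists remained, also chosen with earlier results of these data known. The interval lay above that share in 6 of the 29 lists, below it in 5, and covered it in 18. Among the 6, olfactory and vomeronasal receptors had 10 of 23 peaks in the group (43.5%, interval 25.6% to 63.2%). Of these 10, 5 were peaks of Vom2r80. Peaks of one gene are not independent, so the intervals understate the error. In 23 of the 29 the share was higher at 5 weeks than the share of 3-week peaks listed at 3 weeks only, as it was over all peaks, 25.5% against 16.9%.

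MHC and interferon genes had the highest share among the lists with at least 10 peaks. Of their 27 5-week peaks, 16 (59.3%, interval 40.7% to 75.5%) were listed at 5 weeks only. The 16 lay in 11 of 15 genes with a 5-week peak, beside 41.8% over all such genes. Of the 11, 8 had no 3-week peak, beside 1238 of 5874 over all genes with peaks in the group. Of the 19 3-week peaks of this list, 3 were listed at 3 weeks only. The members include Cd74, the invariant chain of MHC class II (3.54, listed p 3.85e-23), the interferon regulatory factors Irf1 (2.81, listed p 1.14e-09) and Irf8 (2.70, listed p 6.35e-08), and the antiviral gene Ifit1 (4.51, listed p 6.37e-08). The class II genes RT1-Da (2.12), RT1-Ba (3.46) and RT1-Bb (2.99), named after their values were seen, had 1 peak each at 5 weeks and none at 3 weeks. Microglia markers, whose cells use MHC class II genes, had 12 of 40 peaks in the group (30.0%, interval 18.1% to 45.4%), and the 5 defining markers (Cx3cr1, P2ry12, Tmem119, Aif1 and Csf1r) had a peak at both ages.

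Collagen, laminin and integrin genes, which build and bind the extracellular matrix, had 67 of 154 peaks in the group (43.5%, interval 35.9% to 51.4%). Beside 41.8% of all genes with a 5-week peak, 38 of 58 such genes of this list held these peaks. Among them were Col11a2 (2.31 in the 5′ UTR, listed p 9.86e-31), the laminin Lamb2 (2.60, listed p 1.51e-22), Col4a1 of basement membranes (2.23, listed p 2.09e-19) and Itgb1bp1, which binds an integrin tail (2.12, listed p 1.94e-16). Col6a3, with 6 of 6, and Col3a1, with 3 of 3, had no 3-week peak and were named after their values were seen. At 3 weeks 24 of 108 peaks of the list (22.2%, interval 15.4% to 30.9%) were listed at 3 weeks only. Endothelial and mural markers had 17 of 52 (32.7%), with an interval of 21.5% to 46.2% that covers the share over all peaks. They were led by Myh11 (2.56) and Rgs5 (2.34), genes of smooth muscle and pericytes.

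Cytosolic ribosomal protein genes had 43 of 104 peaks in the group (41.3%, interval 32.4% to 51.0%). The 43 lay in 32 of 68 genes with a 5-week peak, near the 41.8% over all such genes. Of the 32, 18 had no 3-week peak, beside 1238 of 5874 over all genes with peaks in the group. At 3 weeks 8 of 71 (11.3%, interval 5.82% to 20.7%) were listed at 3 weeks only. Besides Rpl19, Rps15 and Rps7, Rpl29 was among the leading ones (2.29, listed p 7.20e-182). Translation factors had 25 of 81 (30.9%), with an interval of 21.9% to 41.6% that covers the share over all peaks. Nuclear-encoded genes of oxidative phosphorylation had 45 of 129 (34.9%, interval 27.2% to 43.4%), led by the complex I genes Ndufv2 (2.24, listed p 2.79e-199), Ndufa8 (2.41, listed p 4.61e-162) and Ndufb11 (2.39, listed p 2.91e-100) and by Uqcrh of complex III (2.25, listed p 1.06e-93). The 45 lay in 34 of 73 genes with a 5-week peak, near the 41.8% over all such genes. Glycolytic enzymes had 8 of 17 (47.1%, interval 26.2% to 69.0%). These were Aldoc, Ldhb (1.93), Pgk1 (2.13), Pfkm, Pgam1 and 3 peaks of Hk1 (2.11 for the first by p). They lay in 6 of 10 glycolytic genes with a 5-week peak. The 5-week peaks of these lists were weak as a whole, with medians of 2.86 for ribosomal proteins, 2.32 for translation factors, 2.38 for oxidative phosphorylation and 2.21 for glycolysis, and weak peaks were more often listed at 5 weeks only. The part of this relation in the shares of the lists was not tested.

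The lists whose interval lay below 25.5% were those of monoamine receptors, protocadherins, oligodendrocytes, Zfp genes and potassium channels. Monoamine, histamine and acetylcholine receptor genes had 7 of 77 peaks in the group (9.09%, interval 4.47% to 17.6%), in Htr2c (2.22), Drd2 (2.37, 150 bases from a 3-week peak of 3.29), Adra2a (2.17), Htr2a (2.24), Chrm4 and Htr1d, all with 3-week peaks elsewhere. At 3 weeks the share was 12 of 66 (18.2%). Protocadherin genes had 14 of 129 (10.9%, interval 6.58% to 17.4%), among them Pcdh15 (2.14), Pcdha5 (1.46) and Pcdhga5 (3.68). Oligodendrocyte and myelin genes had 16 of 106 (15.1%), led by Car2 (2.24), Plekhb1 (2.14), Mobp (2.12) and Sirt2 (2.53). Each of its genes with peaks in the group had a 3-week peak, while 1238 of all 5874 genes with such peaks had none at 3 weeks. Zinc finger (Zfp) genes had 116 of 720 (16.1%, interval 13.6% to 19.0%), led by Zfp207 (2.20), and potassium channels 35 of 198 (17.7%), led by Kcna2 (1.66) and Kcnk9 (2.00). The shares listed at 3 weeks only were 12.7% for protocadherins, 14.9% for Zfp genes, 15.5% for oligodendrocyte genes and 22.4% for potassium channels. Over all 3-week peaks the share was 16.9%. Peaks in the group lay in 27 of 71 potassium channel genes with a 5-week peak, near the 41.8% over all such genes. The counts were lower for Zfp genes (86 of 264), oligodendrocyte genes (12 of 38), protocadherins (5 of 28) and monoamine receptors (6 of 33). The medians of all 5-week peaks were 3.63 for protocadherins, 3.44 for Zfp genes, 3.02 for monoamine receptors, 2.97 for potassium channels and 2.75 for oligodendrocyte genes, the last of which is below the 2.86 of ribosomal proteins. Other receptor lists did not have such low shares, with 22 of 74 peaks of neuropeptide and hormone receptors (29.7%, interval 20.5% to 40.9%) and 22 of 102 of glutamate and GABA receptor subunits (21.6%, interval 14.7% to 30.5%).

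**Figure D5:**
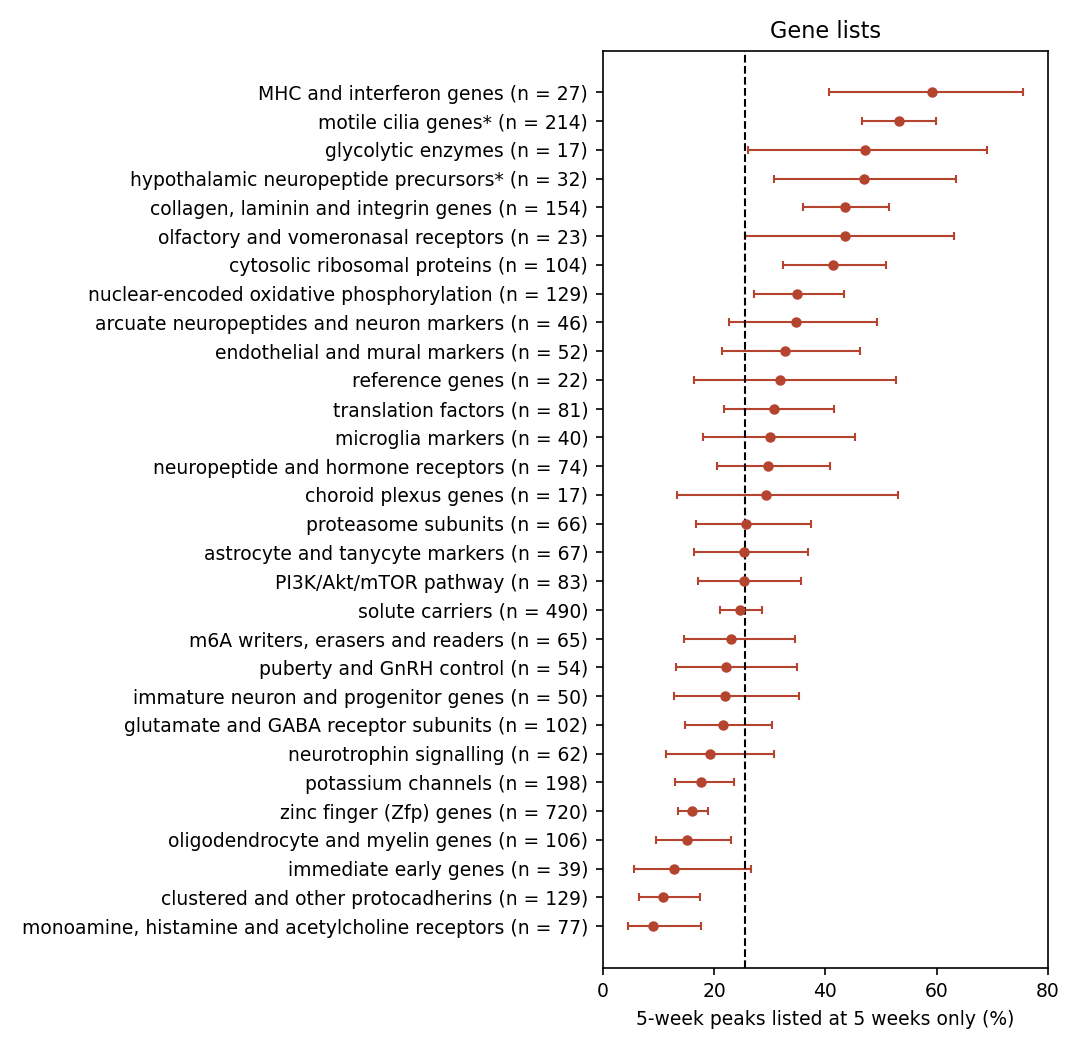
Share of the 5-week peaks of each gene list that were listed at 5 weeks only (x axis, percent), with 95% Wilson intervals over peaks and the number of 5-week peaks in brackets, for lists with at least 10 peaks. The dashed line is the share over all 5-week peaks, 25.5%, and an asterisk marks lists written after values were seen.

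Genes of puberty and GnRH control had 12 of 54 peaks in the group (22.2%, interval 13.2% to 34.9%). Of all genes with a 5-week peak 41.8% held such peaks, and a similar share, 11 of 27 genes, did so in this list. Nkx2-1, a transcription factor of the ventral hypothalamus, led them at its stop codon (3.42, listed p 7.59e-68). Next was Igf1r, the receptor of insulin-like growth factor 1 (2.56, listed p 2.11e-34). Kiss1r, the kisspeptin receptor, had 1 peak, at its stop codon, with a log2 enrichment of 8.26 but p of 3.45e-05, named after its value was seen.

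Of the genes at the centre of the study, Bdnf had 2 peaks at 5 weeks, and the one listed at 5 weeks only lay in the 5′ UTR (3.60, listed p 3.40e-05, chr3:96165492-96165666), 33989 bases from the 3-week peak, which had 7.15. Ntrk2, the BDNF receptor, had 5 peaks at each age and none in the group. Fto had 4 peaks at 5 weeks and 2 at 3 weeks, and its peak listed at 5 weeks only lay at the start codon (2.16, listed p 7.76e-07). In the PI3K/Akt/mTOR pathway 21 of 83 peaks (25.3%) were in the group, close to the share of all 5-week peaks. At 3 weeks 13 of 69 peaks of this list (18.8%) were listed at 3 weeks only. Akt1 had 2 of 3 (1.79 in the 3′ UTR and 2.37 in a coding exon), Akt2 1 of 2 (2.15) and Rps6kb1, which encodes p70S6K, none of 3. The number of 3-week peaks was 1 in Akt1, 2 in Akt2 and 4 in Rps6kb1. The p85 subunit gene Pik3r2 (2.32, listed p 1.95e-28) and the mTOR inhibitor Deptor (2.41, listed p 6.43e-18) were among the leading ones by listed p. The neurotrophin list had 12 of 62 (19.4%), with Plcg1 (2.57, listed p 2.88e-51), Sos2, Sorcs1 (1.93) and Shc1 (3.03) first. At 3 weeks 14 of 67 peaks of the neurotrophin list (20.9%) were listed at 3 weeks only, a share close to that at 5 weeks. Creb1, the transcription factor at the end of this pathway, had 2 of its 5 peaks in the group, at 2.06 in a coding exon and 2.07 in the 5′ UTR. It had more peaks at 3 weeks, 7. The m6A writers, erasers and readers had 15 of 65 (23.1%, interval 14.5% to 34.6%), led by the reader Prrc2a (2.01, listed p 9.64e-25) and by Ythdf1 (2.20, listed p 4.77e-09). The eraser Alkbh5 had one in the 5′ UTR (4.23, listed p 8.71e-07), 100 bases from a 3-week peak of 2.89, and Virma, a subunit of the writer complex, had 3.

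The list of arcuate neuropeptides and neuron markers had 16 of 46 peaks in the group (34.8%, interval 22.7% to 49.2%), and 2 of its 33 3-week peaks were listed at 3 weeks only. Astrocyte and tanycyte markers had 17 of 67 (25.4%), among them Aldoc, Vim (2.31, listed p 1.15e-128), Aqp4 (1.82) and Atp1b2. Immature neuron and progenitor genes had 11 of 50 (22.0%), with Ncam1 (2.22), Gap43 (2.03) and Dpysl5 (2.10). The share of this list was higher at 3 weeks, with 16 of 51 peaks listed at 3 weeks only (31.4%, interval 20.3% to 45.0%). Over all 3-week peaks it was 16.9%. Choroid plexus genes had 5 of 17 and pituitary hormone genes 2 of 3 (Pomc and Tbx19). Of the 5 defining pituitary markers, none had a listed peak at 5 weeks and 1 did at 3 weeks. Of 8 defining markers of ARC neurons, 5 had a listed peak at 5 weeks and 3 did at 3 weeks.

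The authors' deposited table of regions that differ between the ages gives an enrichment at each age, and 880 of the 8424 peaks overlap a region there. Only the 89 peaks that have the same interval there are described. This table holds only regions with p under 0.05 for the difference, and that difference is close to the rule, so the values are a description. Over the 89, the median log2 enrichment was 2.75 at 5 weeks and 1.62 at 3 weeks. In 61 the 5-week value was higher, with medians of 2.98 at 5 weeks and 1.44 at 3 weeks. Eri1 had 3.99 at 5 weeks and -2.58, below input, at 3 weeks, and Magi3 had 7.10 at 5 weeks and 0.91 at 3 weeks. In the other 28 the 3-week value was higher, with medians of 2.46 at 5 weeks and 7.01 at 3 weeks, although no 3-week peak was listed there. Slc6a12 had 1.93 at 5 weeks and 8.05 at 3 weeks, and Nckap5 3.37 at 5 weeks and 9.01 at 3 weeks. A region without a listed 3-week peak therefore had a higher 3-week enrichment in 28 of 89 cases. The genes of this paragraph were named after their values were seen.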

How the data were processed

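MeRIP-seq libraries of polyadenylated RNA from the ARC of 1 pool of 3 rats per age were sequenced as 150 bp paired-end reads. Reads were trimmed with Cutadapt, and fastp 0.19.4 and HISAT2 2.0.4 are credited to the submitters' processing notes. The notes name a human genome build for these rat data, so coordinates are given without a build. No source used here states the peak caller, its scaling or the annotation. Per age, the deposited lists of peaks hold the log2 fold enrichment of IP over input, the p-value and the Benjamini-Hochberg adjusted p-value of each peak, as the authors made them. The authors' deposited table of differences holds the log2 enrichment at both ages, and its fold changes and p-values between the ages were not used. Depth per library is unknown.

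The listed starts count from 0 (3607 starts at 5 weeks equal the gene start minus 1, 0 equal it), so intervals were compared as half-open, on the same strand, with at least 1 shared base, and checked with bedtools 2.31.1. Starts are printed counted from 1. The intervals, Wilson at 95%, cover counting error over peaks. No test across peaks or genes was run, since there is 1 library of each kind per age. The overlap procedure was tested on simulated intervals. The peaks and the gene lists were chosen with earlier results of these data known. Text names the 10 peaks with the smallest p, the 10 largest enrichments with adjusted p under 0.01, the 10 genes with the most peaks in the group, the 10 smallest p without a 3-week peak in the gene, up to 4 per list, 12 genes of the study and the peaks nearest the overlap limit. Some genes that this rule names are not reported here. Others were chosen after their values were seen, such as all neuropeptide genes, the microRNAs and ties. Alternatives covered the overlap and the thresholds on p and enrichment. Python 3.11.15, numpy 2.4.6, pandas 2.3.3, scipy 1.17.1 and matplotlib 3.10.9 were used.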

Additional observations from a re-analysis of the deposited data

How the results depend on the processing

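The share of 5-week peaks listed at 5 weeks only was 34.9% where at least 50% of the interval had to be covered, 24.8% with both strands, 21.1% where a 3-week peak within 200 bases counted, 24.9% and 21.3% among peaks of adjusted p under 0.01 and of at least 4-fold enrichment, 24.9% (8238 peaks) with both listed ends counted and 26.1% without peaks over a log2 enrichment of 8 (the last 2 settings were chosen after seeing the data). Their median log2 enrichment was 2.35 with the 50% cover, 2.26 under the adjusted p limit and 2.45 under the fold limit. The share in genes without a 3-week peak was 14.8% with the 50% cover, 24.4% with the 200 bases, 22.9% under the fold limit and 21.3% without the largest enrichments. The stop codon share was 17.3% with the 50% cover, against 7.44% in the main comparison, 6.50% with the 200 bases and 6.46% under the fold limit. Limiting the 3-week peaks to adjusted p under 0.01 moved none of these values beyond their intervals. Of 31 lists, 24 stayed on the same side of the share over all peaks in all 8 alternatives. Exon blocks alone could not be compared, since the lists give none, and no library could be left out with 1 of each kind per age. No paired analysis was possible because each group has 1 library. Depth is unknown, so what a missing 3-week peak could have hidden has no limit here.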
